A study of Mus musculus with 20 samples.

Results

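The 8 genes described here are markers of pericytes and mesangial cells, the mural cells of the kidney: the regulators of G protein signalling Rgs5 and Rgs4, the surface proteins Cspg4 (NG2) and Mcam (CD146), the receptor Notch3 with the Notch target Heyl, and the potassium channel subunits Abcc9 (SUR2) and Kcnj8 (Kir6.1). They were taken by name and not by their values from the 51826 mouse genes of the table, though earlier results of these data were known. The data are RNA-seq counts of primary myofibroblasts that were grown from pieces of C57BL/6J mouse kidney and sequenced at passage 2. The 20 libraries form 4 groups of 5, WT and WWP2-/- cells, each untreated or treated with the profibrotic cytokine TGFβ1. WWP2 is a ubiquitin ligase, and the WWP2-/- mice lack its full-length and N-terminal isoforms. All 4 groups were cultured alike, the labels give neither dose nor duration of TGFβ1, and they do not say whether replicates came from separate mice. The p-values below therefore measure the spread between these libraries, which may in part be technical.

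Pericytes wrap capillaries and control their calibre, and mesangial cells hold the capillary loops of the glomerulus. Both descend in large part from Foxd1-expressing stroma, as do many renal fibroblasts, and pericytes are one of the proposed sources of myofibroblasts in the fibrotic kidney. Rgs5 and Rgs4 speed up GTP hydrolysis by G alpha proteins and so shorten signalling by vasoactive receptors. Cspg4 is a membrane proteoglycan and Mcam an adhesion molecule of the immunoglobulin superfamily. Notch3 is the Notch receptor of mural cells, it is activated by ligands such as Jag1 on neighbouring cells, and its cleaved domain joins RBPJ to switch on genes such as Heyl. Abcc9 and Kcnj8 assemble into the ATP-sensitive potassium channel of vascular mural cells.

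The positions are those of GRCm38. Rgs5 (ENSMUSG00000026678, chr1:169655501-169695813, plus strand) and Rgs4 (ENSMUSG00000038530, chr1:169741477-169747642, minus strand) lie 45.7 kb apart with 0 genes between them. Kcnj8 (ENSMUSG00000030247, chr6:142564837-142571614, minus strand) and Abcc9 (ENSMUSG00000030249, chr6:142587862-142702315, minus strand) lie 16.2 kb apart, also with 0 genes between them. Cspg4 (ENSMUSG00000032911, chr9:56865033-56899870, plus strand), Mcam (ENSMUSG00000032135, chr9:44134469-44142727, plus strand), Notch3 (ENSMUSG00000038146, chr17:32120820-32166852, minus strand) and Heyl (ENSMUSG00000032744, chr4:123233556-123249875, plus strand) lie apart from one another. Exons of Mcam, Notch3 and Abcc9 overlap an antisense gene each (Gm10687, Gm17276 and 5330439B14Rik). Whether counting used strand is not given in the sources used here. The highest of these antisense genes, Gm10687, reached 2.06 CPM (the usual count scaled to library size) in a library, and 5330439B14Rik had 0 counts in all 20.

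The 4 promoter stretches below belong to the 2 members nearest to a genotype call, Rgs4 and Abcc9, to the neighbour of Rgs4, and to Notch3, the receptor of mural cells. Each is 200 bases long, runs 5′ to 3′ on the gene's own strand and ends 50 bases before the RefSeq start (GRCm38.p6). Capitals mark matches on either strand to TGGGAA (the core bound by RBPJ), to CANNTG (the E-box) and to CAGAC (the SMAD box).
Rgs5, chr1:169655251-169655450, plus strand: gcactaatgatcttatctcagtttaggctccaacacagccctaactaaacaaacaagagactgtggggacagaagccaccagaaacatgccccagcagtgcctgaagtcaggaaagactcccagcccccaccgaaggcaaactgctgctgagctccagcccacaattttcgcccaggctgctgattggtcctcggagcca
Rgs4, chr1:169747693-169747892, minus strand: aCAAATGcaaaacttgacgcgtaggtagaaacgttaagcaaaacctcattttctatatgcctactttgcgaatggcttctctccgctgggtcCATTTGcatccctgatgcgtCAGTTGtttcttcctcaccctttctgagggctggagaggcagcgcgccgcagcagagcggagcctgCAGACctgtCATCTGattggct
Notch3, chr17:32166941-32167140, minus strand: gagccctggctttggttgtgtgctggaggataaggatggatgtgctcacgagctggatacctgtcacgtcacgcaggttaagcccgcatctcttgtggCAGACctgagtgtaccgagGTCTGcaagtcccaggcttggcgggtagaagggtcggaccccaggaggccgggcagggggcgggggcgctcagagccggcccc
Abcc9, chr6:142702325-142702524, minus strand: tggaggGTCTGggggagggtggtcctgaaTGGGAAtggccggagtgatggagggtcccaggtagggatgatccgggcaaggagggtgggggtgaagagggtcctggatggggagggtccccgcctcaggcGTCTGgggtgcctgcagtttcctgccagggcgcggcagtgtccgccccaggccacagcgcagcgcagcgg

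RefSeq promoters of 300 bases were found for 7 of the 8 members, all but Heyl. Over this window, from 250 bases before to 50 after the start, TGGGAA was present in 2 of the 7, Abcc9 and Kcnj8, and in 25.6% of all 32851 promoters of the same length. CAGAC was present in 6 of the 7, all but Mcam, against 49.6% of all promoters. CANNTG was present in 5 of the 7 against 72.3%, and Rgs4 held 5 matches. The CArG box bound by serum response factor was in 0 of the 7 and in 1.63% of all. Over this window the neighbours Rgs5 and Rgs4 both held CANNTG and CAGAC. The matches of Rgs5, 1 of each, lay after the start and so outside the 200 bases printed. Those printed for Rgs4 held 5 matches.

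Totals per library were between 47520759 and 73063697 counts. The deleted gene separated the genotypes, with 49.99 to 59.8 CPM of Wwp2 in the 10 WT libraries and 17.03 to 22.7 CPM in the 10 WWP2-/- libraries. A pair of WWP2-/- libraries stood apart, namely untreated replicate 3 and TGFβ1-treated replicate 1. They were each other's nearest library, with a correlation of 0.992 over the genes tested, a closeness that other pairs also reached. Their median correlation with the other libraries was 0.9221 and 0.9255, against at least 0.9444 for each of the other 18. They held 38.9 and 50.5 CPM of Acta2, the smooth muscle actin of myofibroblasts, against at least 1015.7 CPM in the other 18. Xist, the transcript of the inactive X chromosome, was at or above 1 CPM in 8 of the 10 WT libraries and in 3 of the 10 WWP2-/- libraries. Sex of the source and genotype are thus partly confounded, and Pdgfra, a fibroblast marker, was between 14.4 and 179 CPM in the 11 libraries with Xist and between 0.543 and 1.87 CPM in the 9 without. In bulk libraries, fewer cells of a type and less RNA per cell cannot be told apart.

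As a level per kilobase of exon, the mean over 20 libraries was highest for Mcam, at 27.5 CPM per kb, followed by Notch3 at 6.06, Rgs5 at 2.66, Cspg4 at 2.37 and Rgs4 at 1.62 CPM per kb. Heyl was at 0.235, Abcc9 at 0.0140 and Kcnj8 at 0.00970 CPM per kb. Mcam exceeded Notch3 in 18 of 20 libraries and Notch3 exceeded Rgs5 in 17, whereas Rgs5 exceeded Cspg4 in only 8, so these neighbours in the order did not differ beyond their spread. Cspg4 exceeded Rgs4 in 16 libraries, Rgs4 exceeded Heyl in 19, Heyl exceeded Abcc9 in 17 and Abcc9 exceeded Kcnj8 in 14. The label of a pericyte program held only in part. Of the 8 members, 2 stayed under 1 CPM in all 20 libraries, Abcc9 and Kcnj8, and Kcnj8 had 27 counts over all of them. Of 22 other markers of mural cells, 3 stayed under 1 CPM in all 20, and the rest reached that level in at least 1 library. Higd1b and Vtn, 2 of these 3, never passed 3 counts in a library. Pdgfrb, the PDGF receptor of mural cells and fibroblasts, was between 104 and 742 CPM.

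**Figure D1:**
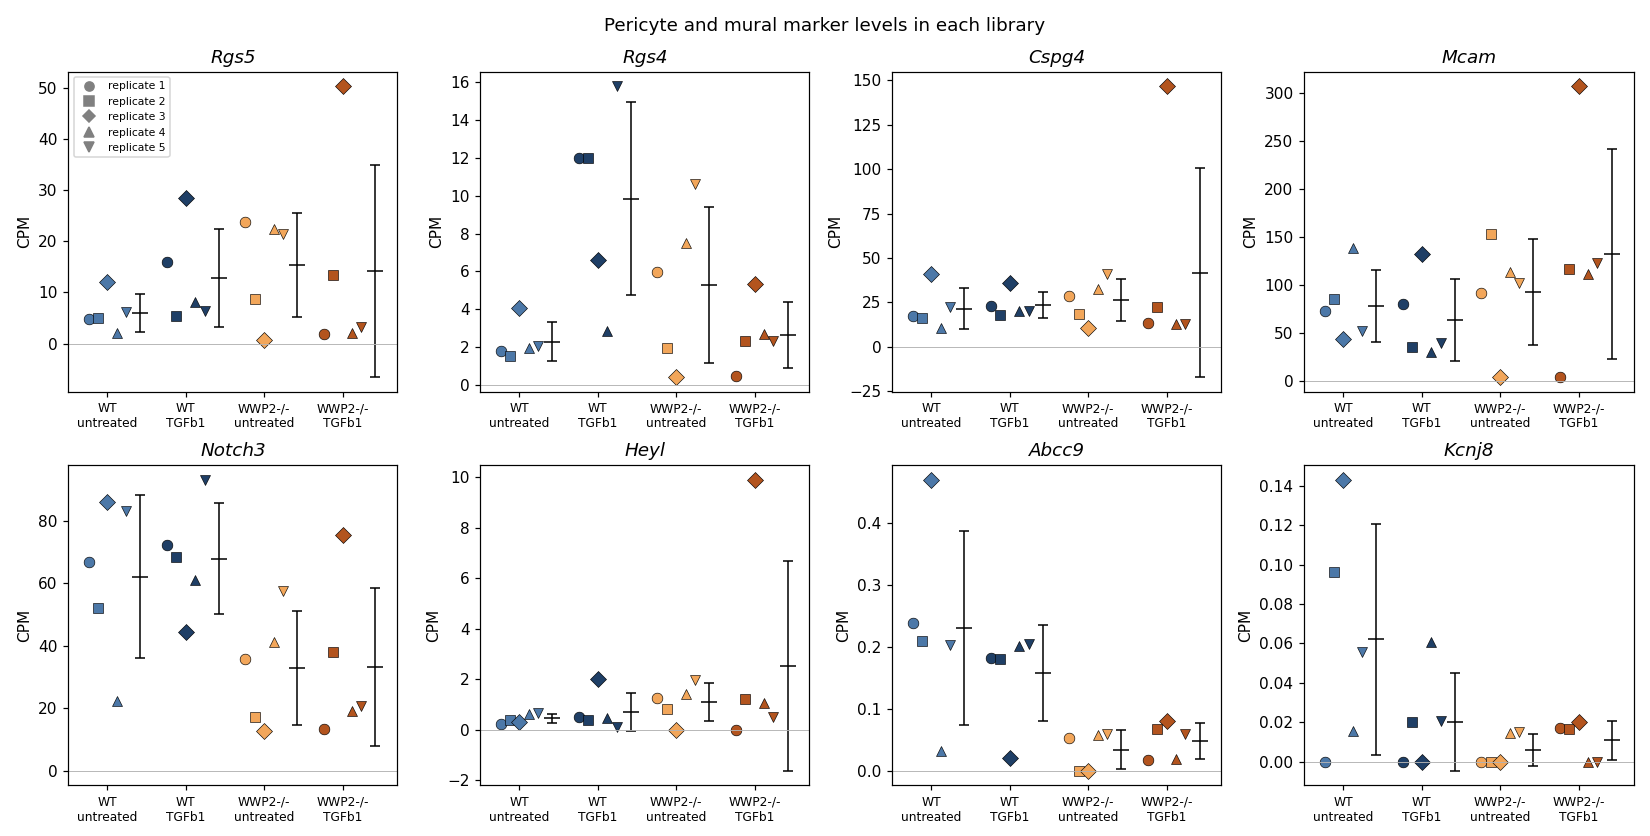
Level of each of the 8 markers in CPM (linear axis, own scale per panel) in every library of the 4 groups, with the symbol giving the replicate number and the bar the mean ± SD (n = 5). TGFβ1-treated WWP2-/- replicate 3 was the highest of all 20 libraries for Rgs5, Cspg4, Mcam and Heyl, and Abcc9 was at most 0.0807 CPM in every WWP2-/- library.

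The test was limited to genes that reached 5 counts in 5 or more libraries, which took in 7 of the 8 members and left out Kcnj8. With edgeR's quasi-likelihood test at an adjusted p of 0.05 over 20407 genes, 0 of the 7 differed between WWP2-/- and WT cells under TGFβ1, a comparison in which 6.07% of all genes tested did. Before adjustment 3 of the 7 had a p under 0.05 (Rgs4, Notch3 and Abcc9, each with a log2 fold change below 0), against 24.7% of all genes. DESeq2's Wald test called 1, Rgs4, and 13.1% of all genes. The median log2 fold change of the 7 was 0.14, beside 0.05 over all genes tested. For 0 of the 7 were the libraries of the 2 groups without overlap, against 5.67% of all genes.

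Untreated, 0 of the 7 differed by genotype by the same test, against 0.725% of all genes. Unadjusted, 1 of the 7 had a p under 0.05, Abcc9, against 14.9% of all genes, and the Wald test called the same gene and 3.66% of all. The median of the 7 was 0.28 on the log2 scale, beside 0.08 over all genes tested, and 0 of the 7 had groups without overlap, against 2.79%. TGFβ1 changed 0 of the 7 in WT cells, with 0% of all genes called. There 1 member (Rgs4) had an unadjusted p under 0.05, against 6.85% of all genes, the Wald test called 0, and 0 had groups without overlap, against 1.35% of all genes. In WWP2-/- cells 0 of the 7 changed, again with 0% of all genes called. There 0 members had an unadjusted p under 0.05, against 3.49% of all genes, the Wald test called 0, and 0 had groups without overlap, against 0.377%. The interaction of genotype and TGFβ1 was called for 0 of the 7 and for 0% of all genes, with Rgs4 alone at an unadjusted p under 0.05, against 6.98% of all genes, and 0 by the Wald test.

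**Figure D2:**
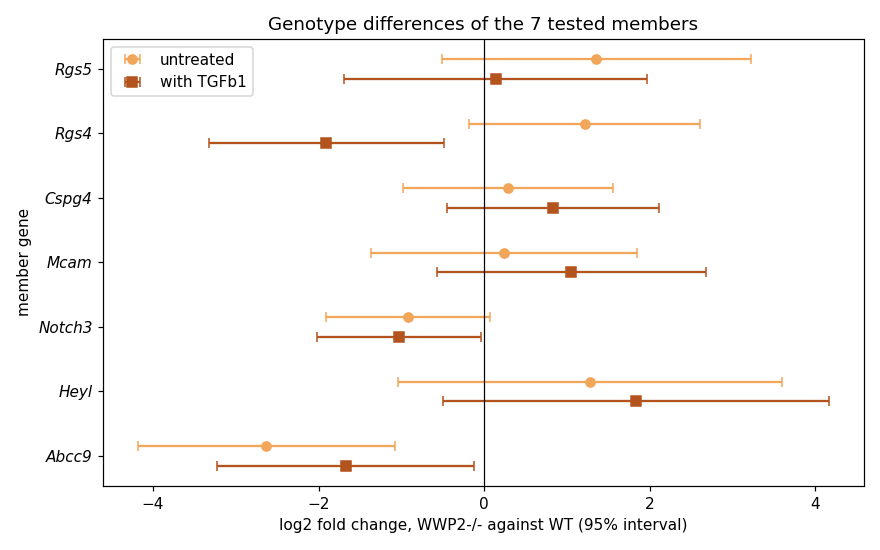
Log2 fold change of WWP2-/- against WT with its 95% interval from edgeR's fit over all 20 libraries, for the 7 members tested (vertical axis), untreated (circles) and with TGFβ1 (squares). The intervals of Abcc9 lie below 0 in both comparisons, and those of Rgs4 and Notch3 lie below 0 with TGFβ1 but not untreated, while 0 of the 7 pass an adjusted p of 0.05.

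The mean of Rgs4 was higher with TGFβ1 than without in WT cells, and lower with TGFβ1 than without in WWP2-/- cells. Untreated WT replicates 1 to 5 held 1.78, 1.54, 4.07, 1.94 and 2.07 CPM of Rgs4. With TGFβ1, the WT replicates held 12.02, 11.98, 6.63, 2.83 and 15.8 CPM. Of the treated replicates, replicate 4 alone fell within the untreated range. Untreated WWP2-/- replicates held 5.95, 1.95, 0.403, 7.52 and 10.6 CPM of Rgs4, and the treated ones 0.488, 2.34, 5.33, 2.68 and 2.29 CPM. The lowest value of either WWP2-/- group was that of the library that stood apart, and the groups overlapped.

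In WT cells the log2 fold change of Rgs4 with TGFβ1 was 2.11 ± 0.68 (SE), with an adjusted p of 0.641 by edgeR and an unadjusted p of 0.00606. In WWP2-/- cells it was -1.01 ± 0.66. The difference between these responses, the interaction, was -3.12 ± 0.95, with a 95% interval from -5.11 to -1.14 and an adjusted p of 0.512 by edgeR, so it did not pass the correction over all genes. Between genotypes under TGFβ1, the mean was 9.85 ± 5.10 CPM in WT and 2.63 ± 1.74 CPM in WWP2-/- cells (SD, n = 5). The log2 fold change was -1.91 ± 0.68 (adjusted p = 0.0928, edgeR), and DESeq2's Wald test gave an adjusted p of 0.0316. Untreated, it was 1.21 ± 0.66 with an adjusted p of 0.398 by edgeR. Without both libraries that stood apart, the difference under TGFβ1 was -1.63 with an adjusted p of 0.0382 by edgeR, in a fit that called 17.2% of all genes. With Xist (log2 CPM) as a covariate this difference was -2.73 with an adjusted p of 0.0919.

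Rgs5, the neighbour of Rgs4 on chromosome 1 and the most used pericyte marker of its family, varied widely within each group. Untreated WT replicates held 4.84, 5.04, 12.04, 2.02 and 6.15 CPM, and treated WT replicates 15.9, 5.37, 28.4, 8.16 and 6.31 CPM of Rgs5. Treated replicates 2, 4 and 5 lay within the untreated range. The untreated WWP2-/- group held 23.7, 8.81, 0.745, 22.4 and 21.4 CPM. Treated WWP2-/- replicates held 1.89, 13.4, 50.2, 2.16 and 3.15 CPM. The highest and the lowest library of all 20 for Rgs5 were thus both WWP2-/- ones, treated replicate 3 and untreated replicate 3.

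The log2 fold change of Rgs5 between genotypes was 1.36 ± 0.89 untreated, with an adjusted p of 0.485 by edgeR. Under TGFβ1 it was 0.14 ± 0.87 with a 95% interval from -1.69 to 1.97. Without treated WWP2-/- replicate 3 it was -1.33 with an adjusted p of 0.325, and it was also below 0 without treated WT replicate 2 (-0.060) or 5 (-0.038), so its direction rested on single libraries. It was -0.88 with Xist as a covariate. With TGFβ1 in WT cells it was 1.09 ± 0.88 (adjusted p = 0.902, edgeR).

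Cspg4, the NG2 proteoglycan, was between 10.5 and 40.8 CPM in all libraries but 1. The untreated WT group held 17.5, 16.1, 40.8, 10.8 and 22.6 CPM, and treated WT replicates 23.2, 17.8, 36.0, 19.9 and 20.1 CPM. The treated values lay within the untreated range, with replicate 3 the highest in each group. In untreated WWP2-/- cells the replicates held 28.7, 18.7, 10.5, 32.5 and 40.8 CPM of Cspg4. Treated WWP2-/- replicates held 13.5, 22.4, 147, 13.0 and 13.0 CPM. All but 1 of the latter lay between 13.0 and 22.4 CPM, and replicate 3 was the highest of all 20 libraries. The log2 fold change of Cspg4 between genotypes was 0.28 ± 0.60 untreated (adjusted p = 0.848, edgeR) and 0.83 ± 0.61 with TGFβ1 (adjusted p = 0.423, edgeR). Without treated WWP2-/- replicate 3 the latter was -0.61, and with Xist as a covariate the former was -0.24, so both directions turned.

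Mcam, the adhesion molecule CD146, was the most abundant member per kilobase and ranged from 4.27 to 306 CPM. Untreated WT replicates held 73.3, 85.7, 43.5, 139 and 52.0 CPM, and treated WT replicates 80.8, 35.7, 132, 30.9 and 39.6 CPM. The highest WT libraries were untreated replicate 4 and treated replicate 3, the WT libraries without Xist. Untreated WWP2-/- replicates held 92.2, 153, 4.27, 113 and 102 CPM of Mcam, and treated ones 4.41, 117, 306, 112 and 123 CPM. The lowest values, 4.27 and 4.41 CPM, were those of the 2 libraries that stood apart. In all 9 libraries without Xist, of either genotype, Mcam was between 102 and 306 CPM, above the 4.27 to 92.2 CPM of the 11 libraries with Xist.

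The log2 fold change of Mcam between genotypes was 0.24 ± 0.77 untreated (adjusted p = 0.901, edgeR), or -0.042 without untreated WWP2-/- replicate 2, and 1.05 ± 0.77 with TGFβ1 (adjusted p = 0.425, edgeR). Without both libraries that stood apart, the latter was 1.36 with an adjusted p of 0.0452 by edgeR, in a fit that called 17.2% of all genes. With Xist as a covariate it was -0.86, and untreated -1.01, so the direction turned. The comparison within libraries of 1 Xist class had too few libraries, since 1 treated WT library lacked Xist and 1 treated WWP2-/- library had it.

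Notch3, the receptor of mural cells, had a lower mean in WWP2-/- than in WT cells both untreated and with TGFβ1. In untreated WT cells the replicates held 66.9, 52.2, 86.1, 22.2 and 83.3 CPM, and treated WT replicates 72.4, 68.4, 44.5, 61.1 and 93.2 CPM. The lowest WT library of each group was again the 1 without Xist. Untreated WWP2-/- replicates held 35.8, 17.3, 12.5, 41.3 and 57.4 CPM of Notch3, and treated ones 13.2, 37.9, 75.4, 19.1 and 20.7 CPM. Of the 10 WWP2-/- libraries, only untreated replicate 5 and treated replicate 3 passed 50 CPM, a level that 8 of the 10 WT libraries passed, so the groups overlapped.

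The mean of Notch3 was 67.9 ± 17.7 CPM in WT and 33.2 ± 25.3 CPM in WWP2-/- cells with TGFβ1 (SD, n = 5), a log2 fold change of -1.03 ± 0.47 with an adjusted p of 0.185 by edgeR. Without treated WWP2-/- replicate 3 it was -1.60, with an adjusted p of 0.0462, in a fit that called 6.03% of all genes. Untreated, the means were 62.1 ± 26.1 and 32.9 ± 18.3 CPM and the log2 fold change was -0.92 ± 0.47 (adjusted p = 0.366, edgeR). With Xist as a covariate the values were -1.21 with TGFβ1 and -1.06 untreated, with adjusted p-values of 0.278 and 0.315.

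Heyl, a transcriptional repressor switched on by Notch signalling, was rare. Untreated WT replicates held 0.239, 0.402, 0.327, 0.636 and 0.665 CPM, and treated WT replicates 0.524, 0.401, 2.02, 0.485 and 0.123 CPM. Treated replicate 3 stood above all other WT libraries. Among untreated WWP2-/- cells the replicates held 1.27, 0.847, 0, 1.43 and 1.97 CPM of Heyl, and treated ones 0, 1.21, 9.91, 1.08 and 0.503 CPM. The 2 libraries at 0 were those that stood apart. There a count of 0 allows up to 0.0617 and 0.0491 CPM (3 counts over the unscaled library total, counting error only). In the untreated groups the other 4 WWP2-/- libraries exceeded every WT library, but with the library at 0 the groups overlapped. The share of all genes that separate without that library was not measured. The log2 fold change of Heyl was 1.28 ± 1.11 untreated (adjusted p = 0.607, edgeR) and 1.83 ± 1.11 with TGFβ1 (adjusted p = 0.322, edgeR). Without treated WWP2-/- replicate 3 the latter was -0.036, and with Xist as a covariate -0.12, against -0.14 untreated.

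Abcc9, the regulatory subunit SUR2 of the potassium channel, was rare, with at most 23 counts in a library. Untreated WT replicates held 0.239, 0.209, 0.470, 0.0310 and 0.203 CPM, or 2 to 23 counts, and treated WT replicates 0.181, 0.180, 0.0200, 0.202 and 0.204 CPM, or 1 to 10 counts. Within each WT group 4 libraries were at or above 0.18 CPM, and the fifth, the 1 without Xist, was at 0.0310 and 0.0200 CPM. Untreated WWP2-/- replicates held 0.0520, 0, 0, 0.0578 and 0.0593 CPM of Abcc9, and treated ones 0.0168, 0.0665, 0.0807, 0.0180 and 0.0592 CPM. No WWP2-/- library had more than 4 counts, and the 2 WT libraries without Xist fell inside the WWP2-/- range. A count of 0 in untreated replicates 2 and 3 allows up to 0.0485 and 0.0617 CPM, again on unscaled library totals.

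Summed over libraries, Abcc9 had 62 counts in untreated WT and 12 in untreated WWP2-/- cells, and 39 and 14 with TGFβ1. The log2 fold change was -2.63 ± 0.74 untreated, with a 95% interval from -4.18 to -1.07 and an adjusted p of 0.107 by edgeR, and DESeq2's Wald test gave an adjusted p of 0.0136. Without untreated WT replicate 4, the WT library without Xist, it was -2.95 with an adjusted p of 0.0218, in a fit that called 3.67% of all genes. With TGFβ1 the log2 fold change was -1.67 ± 0.74 (adjusted p = 0.172, edgeR). With Xist as a covariate it was -2.06 untreated, with an adjusted p of 0.182, and -0.93 with TGFβ1, with an adjusted p of 0.601.

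Kcnj8, the pore subunit Kir6.1 of the same channel, had 17 counts in untreated WT, 5 in treated WT, 2 in untreated WWP2-/- and 3 in treated WWP2-/- cells. Its highest library, untreated WT replicate 3, held 7 counts or 0.143 CPM, and was also the highest for Abcc9. It was not tested with the filter. In a fit without any filter on low counts its log2 fold change untreated was -2.98, with an adjusted p of 0.317 by edgeR. The other channel subunits of this type, Kcnj11 and Abcc8, never passed 8 counts in a library.

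**Figure D3:**
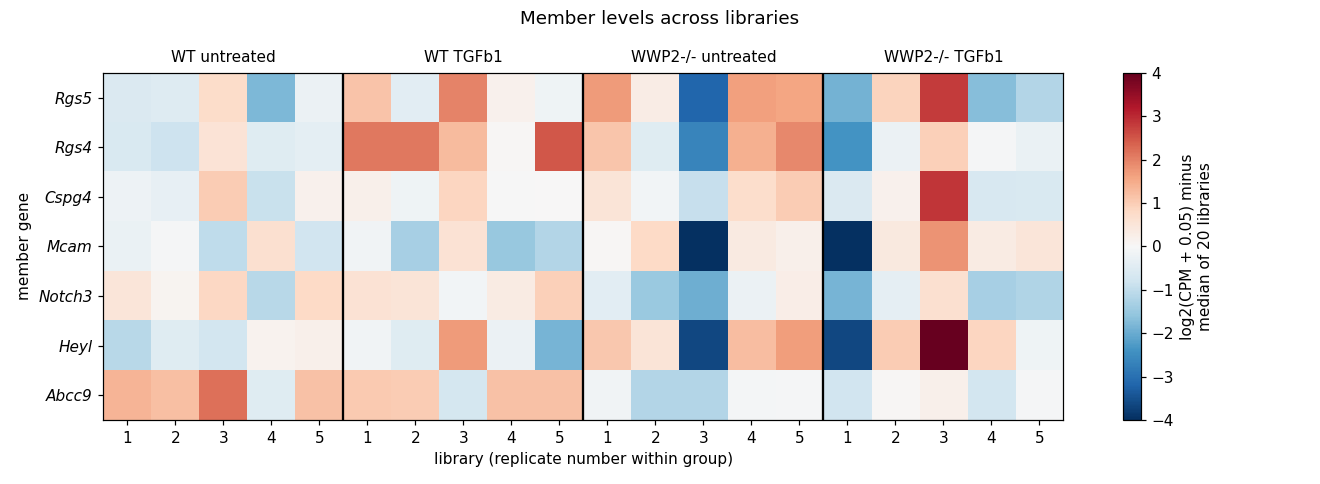
Level of the 7 tested members in the 20 libraries, as log2(CPM + 0.05) minus the gene's median over the libraries (colour, shown from -4 to 4). Untreated WWP2-/- replicate 3 was among the 2 lowest libraries for all 7 members and treated WWP2-/- replicate 1 for 5, whereas treated WWP2-/- replicate 3 was the highest for 4.

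Some single libraries were low or high for several members at once. Untreated WWP2-/- replicate 3 was among the 2 lowest of the 20 libraries for all 7 tested members, and treated WWP2-/- replicate 1 for 5 of them, all but Cspg4 and Abcc9. Treated WWP2-/- replicate 3 was the highest of all for 4. Relations between members were therefore measured without the 2 libraries that stood apart, and apart for the 9 libraries with Xist and the 9 without. That made 42 relations over the 21 pairs, on log2 CPM with a prior count of 2, tested with exact two-sided permutation tests. The 9 libraries with Xist were the 8 WT ones with Xist and untreated WWP2-/- replicate 1, which was intermediate for Xist and Pdgfra. The 9 without were 1 untreated and 1 treated WT library, and 3 untreated and 4 treated WWP2-/- libraries. The classes thus largely follow genotype. Libraries were permuted across groups, so differences between groups enter these relations.

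The pair Rgs5 and Cspg4, which lie on different chromosomes, had the smallest p among these relations. Among the 9 libraries without Xist, Pearson's r was 0.904 (exact permutation p = 3.03e-05, adjusted p = 0.00127) and Spearman's rho 0.950 (exact permutation p = 0.000353, adjusted p = 0.0148). Without the 2 libraries farthest from the median of Rgs5, r was 0.890. Among the 9 libraries with Xist, r was 0.715 (exact permutation p = 0.0279, adjusted p = 0.142) and rho 0.867 (exact permutation p = 0.00451, adjusted p = 0.0425). Here r was 0.909 without the 2 farthest libraries.

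In the libraries without Xist, 6 of 21 pairs passed an adjusted p of 0.05 by Pearson's r, all among Rgs5, Cspg4, Notch3 and Heyl. How many pairs of other genes pass the same test in these libraries was not measured. Cspg4 and Heyl had an r of 0.964 (exact permutation p = 0.000243, adjusted p = 0.00509) and a rho of 0.900 (exact permutation p = 0.00203, adjusted p = 0.0284), with an r of 0.870 without the 2 farthest libraries. Notch3 and its pathway's target Heyl had an r of 0.854 (exact permutation p = 0.000783, adjusted p = 0.00822) and a rho of 0.850 (exact permutation p = 0.00607, adjusted p = 0.0425), and r was 0.850 without the 2 farthest. In the libraries with Xist, where 0 of 21 pairs passed by Pearson's r, r of Notch3 and Heyl was -0.693 (exact permutation p = 0.0454, adjusted p = 0.156) and rho -0.483 (exact permutation p = 0.194). There r turned to 0.164 without the 2 farthest libraries, so its sign rested on those. The difference between the classes, which also largely follow genotype, was not tested. Over the 18 libraries of both classes, r of the deviations from the group means was 0.307 for Notch3 and Heyl. It was 0.908 for Rgs5 and Cspg4, 0.755 for Cspg4 and Notch3, and 0.716 for Rgs5 and Heyl. For Cspg4 and Heyl it was 0.696, and for Rgs5 and Notch3 0.694.

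The neighbours Rgs5 and Rgs4 had an r of 0.738 without Xist (exact permutation p = 0.0327, adjusted p = 0.142) and of 0.343 with Xist (exact permutation p = 0.363, adjusted p = 0.501), with a rho of 0.717 (exact permutation p = 0.0369) and 0.567 (exact permutation p = 0.121). Notch3 and Abcc9 had an r of 0.664 without Xist (exact permutation p = 0.0482, adjusted p = 0.156) and 0.763 with it (exact permutation p = 0.0348, adjusted p = 0.142). Their rho was 0.700 and 0.383 (exact permutation p = 0.0433 and 0.312). Their r was 0.360 and 0.487 without the 2 farthest libraries, so the relation rested in part on those. Heyl and Abcc9 had an r of -0.626 and a rho of -0.650 with Xist (exact permutation p = 0.0636 and 0.0666), against an r of 0.408 and a rho of 0.400 without (exact permutation p = 0.281 and 0.291). For Mcam and Abcc9, r was -0.428 with Xist and 0.158 without (exact permutation p = 0.294 and 0.736), with a rho of -0.0667 and -0.0333 (exact permutation p = 0.880 and 0.948). Mcam and Notch3 had an r of -0.555 and 0.368 (exact permutation p = 0.116 and 0.370) and a rho of -0.45 and -0.0167 (exact permutation p = 0.230 and 0.982). The adjusted p of these 3 pairs was above 0.05 in both classes. Mcam and Heyl, which look related in all libraries together, had an r of 0.693 and a rho of 0 without Xist (exact permutation p = 0.0975 and 1), and an r of 0.397 and a rho of 0.433 with Xist (exact permutation p = 0.301 and 0.250).

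**Figure D4:**
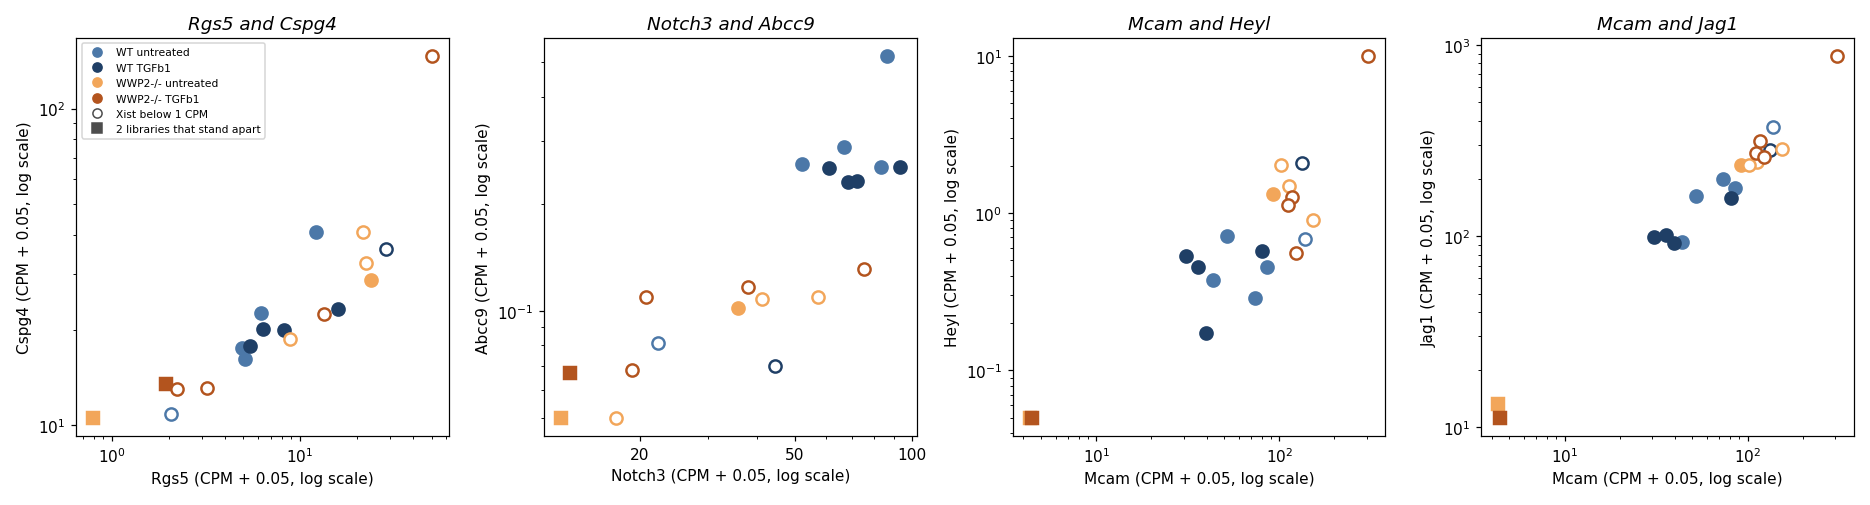
Levels (CPM + 0.05, log axes) of 4 pairs of genes in the 20 libraries, coloured by group, open where Xist was below 1 CPM and square for the 2 libraries that stood apart. Rgs5 and Cspg4 follow 1 line through all groups, Abcc9 splits into WT libraries with Xist and the rest, and Mcam and Jag1 follow 1 line in both Xist classes.

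Among 13519 genes with a mean of at least 1 CPM, the patterns most like each member's over the 20 libraries were as follows, as Pearson's r of log2 CPM. Libraries of 1 group and the 2 that stood apart are shared by all these values, which are descriptions only. Mcam was most like Jag1, a ligand of Notch receptors, with an r of 0.989, and 0.963 without the 2 libraries that stood apart, and next to it like Gxylt2, with an r of 0.980. Jag1 was between 237 and 875 CPM in the 9 libraries without Xist and between 11.2 and 234 CPM in the 11 with it, a split like that of Mcam. Notch3 was most like Map4k5 (0.977) and the cadherin Fat4 (0.974), and Abcc9 like Pi16, a marker of adventitial fibroblasts (0.963), and Serpinb6c (0.928). Heyl was most like the integrin subunit Itgb1 (0.942) and Ss18 (0.938), and Cspg4 like Creb3l2 (0.929) and Asap2 (0.898). For Rgs5 these were Lsp1 (0.916) and Dpysl3 (0.902), and for Rgs4 Amotl2 (0.910) and Ltbp3 (0.909).

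The rest of the Notch pathway was measured through 28 genes, of which 26 were tested. With TGFβ1, 1 was lower in WWP2-/- cells and 0 were higher, beside 6.07% of all genes called. Untreated, 0 differed by edgeR, against 0.725% of all genes. There 0 had an unadjusted p under 0.05, against 14.9%, and the Wald test called 0, against 3.66%. The 1 called was Aph1a, a subunit of the gamma-secretase that cleaves Notch receptors, at -0.44 ± 0.12 (log2 fold change, adjusted p = 0.0438, edgeR), a call lost when Xist was added to the fit (-0.24, adjusted p = 0.218) and in 8 of 10 fits that left out 1 library, all but those without treated WT replicate 3 or treated WWP2-/- replicate 1. In those 10 fits its log2 fold change was between -0.55 and -0.34. Jag1 was at 1.24 ± 0.75 under TGFβ1 (adjusted p = 0.320) and 0.02 ± 0.74 untreated (adjusted p = 0.993). Of the targets of Notch signalling, Hes1 was at 0.31 ± 0.39 (adjusted p = 0.669), Hey1 at 0.18 ± 0.60 (adjusted p = 0.892) and Hey2 at -1.64 ± 0.76 (adjusted p = 0.193) under TGFβ1. The other receptors were at -0.60 ± 0.29 for Notch1 (adjusted p = 0.211) and 0.22 ± 0.24 for Notch2 (adjusted p = 0.617). Without both libraries that stood apart 5 of the pathway were called with TGFβ1, namely Jag1, Jag2, Maml1, Hey2 and Aph1a, in a fit that called 17.2% of all genes. Without treated WT replicate 3 the calls were Jag2, Maml2 and Aph1a (13.4% of all genes called), and without treated WWP2-/- replicate 1 they were Jag2 and Aph1a (10.3%). The fit with Xist called Maml3 in place of Aph1a, with 2.62% of all genes called.

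Of the 8 other regulators in the R4 family to which Rgs4 and Rgs5 belong, 5 were tested. By edgeR 0 were called in either genotype comparison, against 6.07% of all genes with TGFβ1 and 0.725% untreated. With TGFβ1, 2 had an unadjusted p under 0.05, against 24.7% of all genes, and the Wald test called 1, Rgs1, against 13.1%. Untreated these counts were 1, against 14.9%, and 1, Rgs3, against 3.66%. Rgs2 was at 1.70 ± 0.66 (log2 fold change, adjusted p = 0.121, edgeR) and Rgs16 at -0.05 ± 0.60 (adjusted p = 0.972) under TGFβ1. Leaving out treated WT replicate 3 gave calls for Rgs1 and Rgs2, leaving out treated WWP2-/- replicate 3 gave 1 for Rgs1, and leaving out both libraries that stood apart gave 1 for Rgs16 with TGFβ1 and 1 for Rgs3 untreated. These fits called 13.4%, 6.03%, 17.2% and 1.34% of all genes. Adding Xist to the fit gave 1 untreated, Rgs16, with 0.412% of all genes called.

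Of 22 other markers of mural cells, 20 were tested. With TGFβ1, 3 were lower and 0 higher in WWP2-/- cells, beside 6.07% of all genes called. These were Cd248 (endosialin), at -3.09 ± 0.61 on the log2 scale (adjusted p = 0.0121, edgeR), Aoc3, an amine oxidase of vascular cells, at -6.58 ± 1.12 (adjusted p = 0.00639), and Foxd1, the transcription factor of the renal stroma, at -2.29 ± 0.38 (adjusted p = 0.00614). Untreated, Cd248 (-2.65 ± 0.60, adjusted p = 0.0481) and Aoc3 (-4.58 ± 1.01, adjusted p = 0.0432) were called, and 0 were higher, beside 0.725% of all genes called. The calls of Cd248 and Aoc3 were lost with Xist as a covariate, with log2 fold changes of -2.43 and -4.06 and adjusted p-values of 0.106 and 0.0725 under TGFβ1, and of -2.08 and -2.75 untreated (adjusted p = 0.173 for each). That of Foxd1 held, at -2.41 and 0.00982. The untreated calls of Cd248, Aoc3 and Agtr1a (described next) were also lost whenever 1 library other than untreated WT replicate 4 was left out, with adjusted p-values up to 0.145, 0.133 and 0.145. Their log2 fold changes in these fits stayed between -2.98 and -2.33 for Cd248, -4.94 and -4.26 for Aoc3, and -5.61 and -4.81 for Agtr1a. Cd248 was between 276 and 560 CPM in the 8 WT libraries with Xist, but at 23.1 and 84.7 CPM in the 2 WT libraries without. Pdgfrb was at -1.12 ± 0.41 with TGFβ1 (adjusted p = 0.0993) and Acta2 at -0.05 ± 0.75 (adjusted p = 0.979). Without both libraries that stood apart, 5 were called with TGFβ1, the 3 above with Des and Steap4 (17.2% of all genes called), and 2 untreated, Acta2 and Aoc3 (1.34%).

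Among 7 markers of mesangial and renin-lineage cells, 6 were tested. With TGFβ1, 2 were lower and 0 higher in WWP2-/- cells, in a comparison that called 6.07% of all genes. Itga8, the integrin of mesangial cells, was at -1.76 ± 0.43 (log2 fold change, adjusted p = 0.0226, edgeR), and Agtr1a, the angiotensin II receptor, at -4.66 ± 1.12 (adjusted p = 0.0226). Untreated, Agtr1a alone was called, at -5.08 ± 1.13 (adjusted p = 0.0441), with 0.725% of all genes called. All of these calls were lost with Xist as a covariate, with log2 fold changes of -1.20 and -2.95 and adjusted p-values of 0.0977 and 0.249 under TGFβ1, and of -3.56 and 0.175 for Agtr1a untreated. The call of Itga8 was also lost without treated replicate 2, 4 or 5 of either genotype, and that of Agtr1a under TGFβ1 without treated WT replicate 4 or treated WWP2-/- replicate 2, 4 or 5, with adjusted p-values between 0.0504 and 0.0663 for both genes. Over all fits with 1 treated library left out, the log2 fold change was between -2.12 and -1.59 for Itga8 and between -5.0 and -3.63 for Agtr1a. Untreated, leaving out WT replicate 4 gave a call for Itga8 too (3.67% of all genes called). Leaving out both libraries that stood apart gave 0 calls untreated (1.34%). Ren1, renin itself, never passed 3 counts in a library.

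Markers of other cells moved with some of these libraries. The 10 endothelial markers, all tested, summed to 10.01 to 185 CPM in untreated and 12.3 to 193 CPM in treated WWP2-/- libraries, against 35.3 to 91.3 and 30.3 to 202 CPM in the WT groups. With TGFβ1, 2 of them were called lower and 0 higher in WWP2-/- cells, beside 6.07% of all genes called. Yet 8 of the 10 had a log2 fold change above 0 there, and the median was 0.70. Untreated, 1 was called lower and 0 higher, beside 0.725% of all genes called, with 7 of the 10 above 0 and a median of 0.71. The 10 macrophage markers summed to 150 to 3868 CPM in untreated WT libraries, 60.3 to 424 CPM in treated WT, 75.0 to 1707 CPM in untreated WWP2-/- and 70.5 to 3425 CPM in treated WWP2-/- libraries. By genotype 0 were called, with 10 of 10 above 0 with TGFβ1 (median 2.52) and 0 of 10 untreated (median -0.84). The 8 markers of vascular smooth muscle summed to 106 to 4141 CPM in untreated and 121 to 4431 CPM in treated WWP2-/- libraries. In the WT groups they summed to 1267 to 1840 and 1771 to 2652 CPM, and 0 were called by genotype. Of the 10 fibroblast markers, 3 were called lower and 0 higher in WWP2-/- cells with TGFβ1, beside 6.07% of all genes. There 0 of the 10 were above 0, with a median of -2.77. They summed to 7116 to 31370 CPM in treated WT and 2611 to 9197 CPM in treated WWP2-/- libraries. The part of these cells in the values of the 8 markers was not tested.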

How the data were processed

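The authors' paired-end libraries were made from poly-A RNA. STAR placed the reads on GRCm38 and featureCounts assigned them to exons, and the deposited values are these counts per gene without normalization. Genotype, treatment and replicate came from the labels, and all 20 columns were assigned. The members and all lists were chosen with earlier results of these data known. Names, positions and exon lengths came from GENCODE M21, and promoters from RefSeq.

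Of 51826 genes, the 20407 that reached 5 counts in 5 or more libraries were kept, and CPM used TMM library sizes. All 20 libraries were fitted in 4 groups with glmQLFit and tested with glmQLFTest (edgeR 4.0.16, R 4.3.3), with Benjamini-Hochberg adjustment over the genes tested and a threshold of 0.05. On simulated data of the same design the procedure was tested before use. DESeq2 1.42.0 gave the Wald test.

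The fit has 1 estimate of the spread for all groups. Named are the 8 members, called genes of the other mural, mesangial, Notch, R4 and channel lists with fixed partners, and the 2 genes most like each member. Other measurements of the study were not analysed here. The 2 libraries that stood apart were left out as an alternative chosen after seeing the data, as was the split by Xist. No pair of libraries was identical. The labels do not say whether replicate numbers pair the samples. Deviations of same-numbered libraries from their group means correlated between -0.522 and 0.443. Differently numbered libraries were not compared in this way, so pairing was not settled. Intervals and limits cover counting error or the spread between these libraries only.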

Additional observations from a re-analysis of the deposited data

Results flagged for a closer look

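Over the 8 members and 4 groups, 32 sets of 5 libraries were searched for a library far from the rest, by a gap of over 0.71 of the range of its group (Dixon's 95% limit for 5 values). About 1 set in 20 passes this limit by chance where values are normally distributed and sets are separate, and 6 did. The sets here are linear CPM and share libraries, so 6 cannot be judged against that rate. Treated WWP2-/- replicate 3 gave 3 of them, above its group at 50.2 CPM of Rgs5, 147 CPM of Cspg4 and 9.91 CPM of Heyl. Treated WT replicate 3 gave 2, above its group at 2.02 CPM of Heyl and below it at 0.02 CPM of Abcc9, which was 1 count. Untreated WT replicate 3 stood above its group at 4.07 CPM of Rgs4.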

How the results depend on the processing

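Tried in turn were the size factors of DESeq2, unscaled library totals for the levels, no filter or at least 10 counts in every library, a replicate block, an added Xist term, the Wald test, a fit of the compared groups alone, a threshold of 0.01, and each library left out in turn, with both libraries that stood apart left out as a choice made after seeing the data. Counts of called members rose from 0 to 1 by the Wald test, for Rgs4 with TGFβ1 (13.1% of all genes called) and Abcc9 untreated (3.66%). Without both libraries that stood apart they rose from 0 to 2 with TGFβ1 (Rgs4 and Mcam, with 17.2% of all genes called). They ranged from 0 to 1 when 1 library was left out. The 1 was Notch3 without treated WWP2-/- replicate 3 (6.03% of all genes called) and Abcc9 without untreated WT replicate 4 (3.67%). With Xist as a covariate, Rgs5 (-0.88), Mcam (-0.86) and Heyl (-0.12) turned with TGFβ1, and Cspg4 (-0.24), Mcam (-1.01) and Heyl (-0.14) untreated. The replicate block turned Rgs5 with TGFβ1 (-0.31) and called 0 members in each comparison. Whether replicate numbers pair the samples is not known, so which of the 2 designs is the right one was not settled. With the block, 670 genes in all were called between genotypes with TGFβ1 and 1 untreated, against 1238 and 148 without it. With TGFβ1 and 1 library left out, Rgs5 ranged from -1.33 to 0.65, Cspg4 from -0.61 to 1.06 and Heyl from -0.036 to 2.71, and Mcam ranged untreated from -0.042 to 0.54. The causes were not tested. Of 485 values of single log2 fold changes under an alternative, 399 kept direction and side of the threshold, 67 fell below the threshold, 6 passed it and 13 turned. At these depths Abcc9 and Kcnj8 rest on at most 23 and 7 counts per library.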
